A study of Mus musculus with 4 samples.

Results

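The insulin-like growth factor (IGF) system was represented by 10 genes, taken by symbol from the rows of the 4 count tables: the receptors Igf1r and Igf2r, the ligand Igf2, the binding proteins Igfbp2, Igfbp3, Igfbp4, Igfbp5, Igfbp6 and Igfbp7, and the adaptor Irs1. All 10 had a row of their own among the 23282 rows of each table. The cells were primary pancreatic acinar cells of C57BL/6J mice. In the 2 ERRγ libraries they carried Adenovirus-ERRgamma, a viral vector for the orphan nuclear receptor estrogen-related receptor γ (gene Esrrg). In the 2 GFP libraries they carried Adenovirus-GFP, the same kind of vector for green fluorescent protein. Both groups were exposed for 36 hours at 100 viruses per cell (MOI) and kept in Waymouth's medium with 2.5% serum, a trypsin inhibitor and 25 ng/ml epidermal growth factor. Libraries were made from transcript ends with a Lexogen QuantSeq kit. Whether these replicates were separate cultures or animals is not in the labels. Every p-value here therefore measures the spread among these particular libraries, which may be technical.

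IGF-I and IGF-II act through the type 1 receptor encoded by Igf1r, a tyrosine kinase that signals to growth and survival pathways through insulin receptor substrates such as Irs1. The type 2 receptor, Igf2r, carries mannose-6-phosphate-tagged enzymes to lysosomes and removes IGF-II from the cell surface. Secreted binding proteins hold IGFs in the extracellular fluid, and proteases such as pappalysin free the ligand by cutting them. Igf2 is transcribed from the paternal allele in most mouse tissues, whereas Igf2r is transcribed mainly from the maternal allele.

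The binding proteins share a cysteine-rich N-terminal region, and a run of 8 codons in it (glycine, cysteine, glycine, cysteine, cysteine, any, any, cysteine) is shown here because some members hold it and others do not. The coding sequences of the principal GENCODE M21 transcripts of Igfbp2, Igfbp3, Igfbp4 and Igfbp5 held this run in frame, and those of Igfbp6 and Igfbp7 did not. Capitals mark the cysteine codons:
Igfbp2: ggcTGCggcTGCTGCtccgtgTGC
Igfbp3: ggcTGCggcTGCTGCctgactTGC
Igfbp4: ggcTGCggtTGTTGCgccactTGC
Igfbp5: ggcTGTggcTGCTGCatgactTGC
The run starts at base 199 of the coding sequence in Igfbp2, 202 in Igfbp3, 154 in Igfbp4 and 151 in Igfbp5. Of the 21689 mouse coding genes searched, 18 (0.083%) held it. Besides these members they were Igfbp1, the CCN genes Ccn1, Ccn2, Ccn5 and Ccn6, Krtap28-10, Krtap28-13 and genes with Gm or Rik names. Igfbp6 had 16 cysteine codons in all, Igfbp7 had 19, and the other members had between 18 and 20.

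The 4 libraries held 10105604 to 11012351 counts each. Levels are given as CPM, the counts of a gene in every 1000000 of a library total scaled by the TMM method. Esrrg, the gene that the virus carried, had 1453 and 12994 counts under ERRγ and 86 and 107 under GFP, or 129 and 1282 CPM against 8.79 and 9.59 CPM, so the ERRγ libraries differed widely in it. The log2 fold change was 6.26 (edgeR adjusted p = 0.0109), with 7.12 without ERRγ library 1 and 3.81 without ERRγ library 2. The Esrrg call ended with limma-voom (adjusted p = 0.0623) and in edgeR without GFP library 1 (0.167) or GFP library 2 (0.127), although both ERRγ libraries lay far above both GFP libraries. Of the markers of the labelled cell type, the acinar factor gene Ptf1a had no count in any library. The 8 acinar markers summed to 46.9 and 45.5 CPM under ERRγ and 48.0 and 16.9 CPM under GFP, with Prss2 higher under ERRγ. In ERRγ library 2, 26.7 of the 45.5 CPM came from Prss2. Rbpjl was also higher in both ERRγ libraries (log2 fold change 1.99) but did not pass the test used below. Cpa1 (-0.84), Pnlip (-0.93) and Amy2a5 (-0.38) went the other way, with overlapping groups, and did not pass. Cela1 (-0.04) and Bhlha15 (-0.05) hardly differed. The 6 ductal markers summed to 2270 and 2770 CPM under ERRγ and 3050 and 2939 CPM under GFP, with Krt7 lower and Cftr higher. The 8 fibroblast and stellate cell markers, all present in every library, summed to 636 and 555 CPM under ERRγ and 751 and 513 CPM under GFP, and none passed the test used below. Smooth muscle and pericyte markers summed to 263 and 95.8 CPM under ERRγ and 352 and 160 CPM under GFP. Of the 4 mesothelial markers, Msln had 324 and 385 CPM under ERRγ and 443 and 532 CPM under GFP and did not pass, Wt1 and Lrrn4 had at most 15 and 2 counts in a library, and Upk3b had none. The 5 leukocyte markers summed to 46.4 and 65.4 CPM under ERRγ and 89.8 and 86.7 CPM under GFP, and Cd14 gave most of each sum. Cd14 was lower under ERRγ. Adgre1 had 0 and 0 counts under ERRγ against 8 and 20 under GFP, too few for the test. Csf1r had 3.74 and 7.10 CPM under ERRγ and 2.45 and 3.32 CPM under GFP and did not pass. Lyz2 had at most 6 counts in a library, and Ptprc had 1 count in all. The 7 endothelial markers summed to at most 13.7 CPM and the 3 Schwann cell markers to at most 5.82 CPM in a library. The 6 islet markers, Ins1 and Ins2 among them, summed to 41.3 and 12.4 CPM under ERRγ and 173 and 24.7 CPM under GFP, highest in GFP library 1, and none passed. The part of these cell types in the results on the IGF genes was not tested.

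Under ERRγ, Igf1r fell and Igfbp3 rose, and the other 6 members tested did not pass the threshold. Igf1r was 1.64-fold lower, at 289 ± 34.2 CPM under ERRγ and 473 ± 40.5 CPM under GFP (mean ± SD, n = 2 each). Igfbp3 was 1.80-fold higher, at 228 ± 46.4 CPM under ERRγ and 126 ± 18.4 CPM under GFP. Since each transcript is read near its end, CPM are not divided by length, and the levels of different genes are not ranked here. Igf2 and Igfbp6 had too few reads for the test. The threshold was an adjusted p of 0.05 over all 13070 genes tested with edgeR's quasi-likelihood test, of which 5.06% rose and 1.78% fell (6.84% in all). The median log2 fold change (log2FC) was -0.08 over the 8 members tested and -0.01 over all genes tested. The plot of fold change against level shows where the members lie among all genes.

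**Figure D1:**
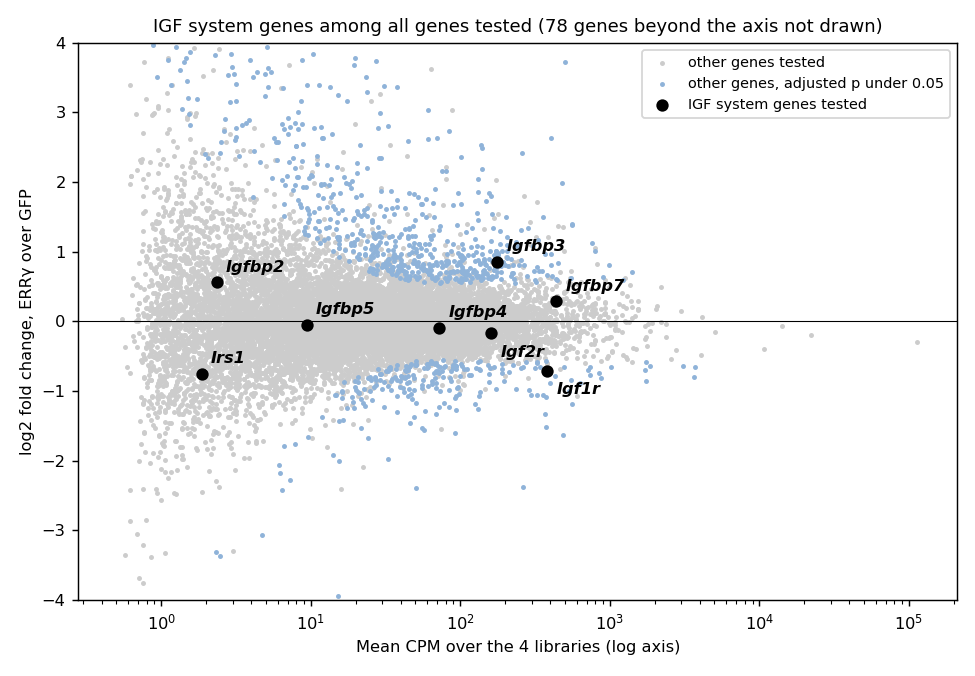
The x axis gives the mean CPM over the 4 libraries on a log scale and the y axis the log2FC of ERRγ over GFP. Grey and blue points are the other genes tested (blue, adjusted p under 0.05), except those beyond the y axis, which are not drawn. Black points are the 8 members tested, with Igfbp3 at 0.85 and Igf1r at -0.71.

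Igf1r (chr7:67952827-68233668, plus strand, GRCm38; protein coding, overlapped by no other annotated gene) had 2976 and 3178 counts in ERRγ libraries 1 and 2, against 4914 and 4962 in GFP libraries 1 and 2. On the scaled level these were 265 and 314 CPM under ERRγ and 502 and 445 CPM under GFP. Both ERRγ libraries lay below both GFP libraries, as they did for 26.6% of all genes tested. The log2FC was -0.71 (SE 0.15, adjusted p = 0.0309). It was -0.59 without ERRγ library 1 and -0.84 without ERRγ library 2, the library with more Esrrg. The call held in the 8 alternative fits that used all 4 libraries (log2FC -0.72 to -0.69), and ended without GFP library 1 (-0.63, adjusted p = 0.291) or GFP library 2 (-0.80, adjusted p = 0.155), when the spread comes from the ERRγ pair alone. Fewer cells that express a gene and less of its RNA per cell cannot be told apart in such libraries.

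ERRγ binds DNA as a monomer at elements of the form TNAAGGTCA. The RefSeq promoter window of Igf1r, from 250 bases before to 50 bases after its start site, was the only one among the 14 windows of the 10 members with this motif on either strand. The match lies on the minus strand, 86 to 78 bases before the RefSeq start site, and 648 bases before the start of the gene in GENCODE. Capitals mark it as it reads on the plus strand (window chr7:67952007-67952306, GRCm38.p6, plus strand, RefSeq):
Igf1r promoter: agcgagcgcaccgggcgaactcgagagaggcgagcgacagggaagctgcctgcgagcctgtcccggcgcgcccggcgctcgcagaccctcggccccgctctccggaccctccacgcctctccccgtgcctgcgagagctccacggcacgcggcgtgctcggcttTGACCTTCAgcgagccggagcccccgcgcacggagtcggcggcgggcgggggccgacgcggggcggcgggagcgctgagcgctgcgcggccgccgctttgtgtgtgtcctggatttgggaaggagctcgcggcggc
The window of Igfbp3, the member that rose, is printed for comparison and held neither this motif nor its core AAGGTCA (chr11:7213874-7214173, GRCm38.p6, minus strand, RefSeq):
Igfbp3 promoter: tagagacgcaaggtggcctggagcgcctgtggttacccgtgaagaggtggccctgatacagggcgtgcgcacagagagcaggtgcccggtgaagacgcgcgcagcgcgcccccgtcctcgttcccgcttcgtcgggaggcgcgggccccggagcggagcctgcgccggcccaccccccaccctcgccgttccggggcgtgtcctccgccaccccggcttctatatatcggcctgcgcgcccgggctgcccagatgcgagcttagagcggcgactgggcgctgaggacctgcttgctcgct
Of all 32851 promoter windows of this length, 1.28% held TNAAGGTCA and 4.72% held AAGGTCA, which lies within the longer motif. The windows of Htra1, Stc2, Mtor, Tsc2 and Airn, genes outside the members that passed the threshold and are described below, held neither sequence. A match of letters is a description and not a measurement of binding.

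Igf2r (chr17:12682406-12769664, minus strand) had 134 and 170 CPM under ERRγ, against 162 and 180 CPM under GFP, and its groups overlapped. The log2FC was -0.17 (SE 0.16, adjusted p = 0.578), and it lay between -0.36 and -0.0044 in the fits without 1 library. The antisense transcript Airn, which starts inside Igf2r and is known to silence its paternal allele, was lower under ERRγ. It had 369 and 336 counts under ERRγ and 616 and 562 under GFP, which is 32.9 and 33.2 CPM against 62.9 and 50.4 CPM. This is a log2FC of -0.78 (SE 0.16, adjusted p = 0.0275), and the call ended without GFP library 1 (-0.61, adjusted p = 0.277) or GFP library 2 (-0.93, adjusted p = 0.0946). The difference between the changes of Airn and Igf2r was not tested. Airn (chr17:12741311-12860136, plus strand) starts 28.4 kb into Igf2r and shares that stretch with it, while the transcript end of Igf2r lies 58.9 kb further on. The use of strand in the counting is not given in the sources used here, so reads in the shared stretch could stand under either gene. The far end of Airn overlaps Mas1, which had 4 and 9 counts under ERRγ and 8 and 15 under GFP.

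**Figure D2:**
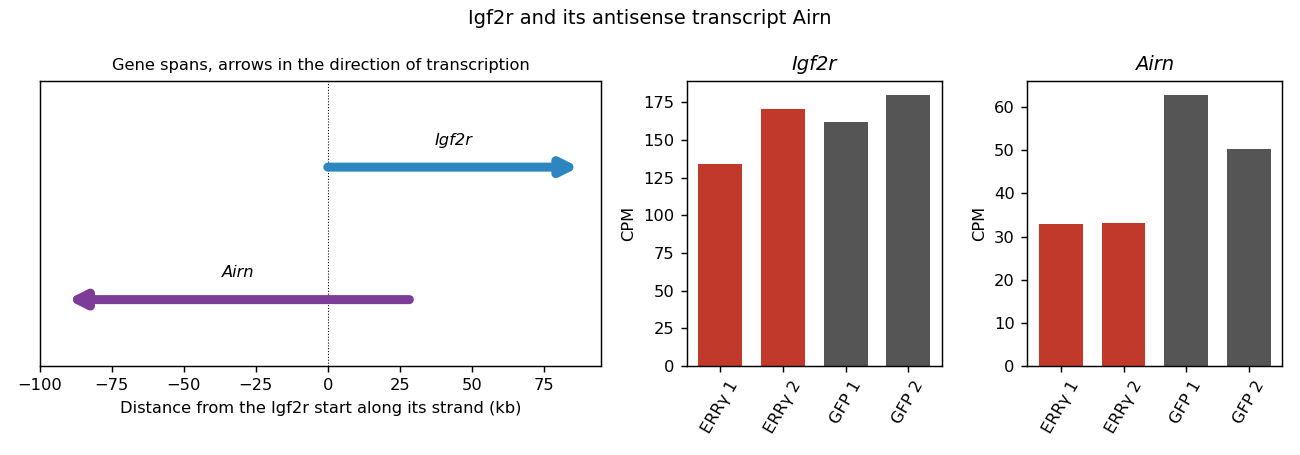
The left panel maps Igf2r and Airn by distance in kb from the Igf2r start, with arrows in the direction of transcription. The bars give CPM in each library (red, ERRγ; grey, GFP): Igf2r lies between 134 and 180 CPM with overlapping groups, and Airn stands near 33 CPM in both ERRγ libraries, against 62.9 and 50.4 CPM under GFP.

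Transcripts of the ligand were scarce. Igf2 (chr7:142650766-142666816, minus strand) had 5 and 18 counts under ERRγ and 0 and 5 under GFP. The highest library was ERRγ library 2, ERRγ library 1 stood level with GFP library 2, and the 0 counts of GFP library 1 allow up to 0.307 CPM. Without a filter on low counts the log2FC was 2.18 (SE 1.25, adjusted p = 0.325). It was 2.86 without ERRγ library 1 and 1.27 without GFP library 1, and neither passed. Leaving out GFP library 2 gave 6.53, which is against a group at 0 and so no measure of size, and did not pass. Igf2 shares its span with the read-through gene Gm49394 on the same strand and with Igf2os on the opposite strand, which had 1 count in ERRγ library 1 and none elsewhere. H19, the imprinted RNA next to Igf2, had 9 and 16 counts under ERRγ and 17 and 3 under GFP (log2FC 0.26, SE 0.89, adjusted p = 0.898). Igf1, the gene of the other IGF ligand, had 67 and 59 counts under ERRγ and 42 and 31 under GFP. Its groups did not overlap, and its log2FC of 0.74 (SE 0.39, adjusted p = 0.305) did not pass.

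Among the binding proteins, Igfbp3 (chr11:7206086-7213923, minus strand), the main carrier of IGFs in blood, had 2186 and 2639 counts under ERRγ, against 1107 and 1552 under GFP. These were 195 and 260 CPM under ERRγ and 113 and 139 CPM under GFP. Both ERRγ libraries lay above both GFP libraries, as they did for 27.4% of all genes tested. The log2FC was 0.85 (SE 0.18, adjusted p = 0.033). It was 1.04 without ERRγ library 1 (adjusted p = 1.54e-09) and 0.62 without ERRγ library 2 (adjusted p = 0.00175). The call held in the 8 alternative fits of all 4 libraries (0.84 to 0.87), and ended without GFP library 1 (0.71, adjusted p = 0.313) or GFP library 2 (1.01, adjusted p = 0.138).

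Igfbp7 (chr5:77349240-77408041, minus strand), which encodes a secreted relative of the family with low affinity for IGFs, had 419 and 544 CPM under ERRγ and 409 and 382 CPM under GFP. The groups did not overlap, but ERRγ library 1 lay only just above the GFP libraries. The log2FC of 0.29 (SE 0.16, adjusted p = 0.337) did not pass with all 4 libraries, and was 0.46 without ERRγ library 1 (adjusted p = 0.0156) and 0.083 without ERRγ library 2 (adjusted p = 0.834). The last 85 bases of Igfbp7 overlap the end of Polr2b on the opposite strand, which had 365 and 436 CPM under ERRγ and 371 and 339 CPM under GFP.

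Igfbp4 (chr11:99041244-99054392, plus strand), which encodes the main substrate of pappalysin, had 71.5 and 68.6 CPM under ERRγ and 60.1 and 89.6 CPM under GFP. The ERRγ libraries lay between the GFP libraries, and the log2FC was -0.10 (SE 0.19, adjusted p = 0.816). Igfbp5 (chr1:72857932-72874884, minus strand), a binding protein that associates with extracellular matrix, had 7.31 and 11.1 CPM under ERRγ and 11.6 and 7.53 CPM under GFP. Its log2FC was -0.05 (SE 0.34, adjusted p = 0.948), and its libraries differed by more within each group than the group means did.

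Igfbp2 (chr1:72824503-72852474, plus strand) ends 5.46 kb from the end of Igfbp5 and had 39 and 21 counts under ERRγ, against 33 and 5 under GFP. Both ERRγ libraries and GFP library 1 stood between 2.07 and 3.48 CPM, and GFP library 2 at 0.448 CPM. The log2FC was 0.56 (SE 0.81, adjusted p = 0.732), with 2.60 without GFP library 1 and -0.28 without GFP library 2. GFP library 2 was also lowest in the summed acinar (16.9 CPM), fibroblast and stellate (513 CPM), endothelial (3.77 CPM) and Schwann cell markers (2.87 CPM). It was not lowest in the other marker sums. The part of these cell types in the Igfbp2 values was not tested. Igfbp6 (chr15:102144362-102149511, plus strand), which encodes a binding protein that prefers IGF-II, had 5 and 3 counts under ERRγ and 9 and 7 under GFP. Both ERRγ libraries were lower, by a ratio of 0.49 with an exact 95% counting interval of 0.182 to 1.21, which covers counting error only.

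Irs1 (chr1:82233101-82291416, minus strand), the adaptor that links the IGF-I and insulin receptors to phosphoinositide 3-kinase, had 19 and 11 counts under ERRγ and 26 and 23 under GFP. Its groups did not overlap, and its log2FC of -0.75 (SE 0.55, adjusted p = 0.464) did not pass. Its transcript end overlaps the gene Gm9747 on the opposite strand. In all, the CPM of the groups did not overlap for 4 of the 8 members tested (Igf1r, Igfbp3, Igfbp7 and Irs1), against 54.0% of all genes tested.

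**Figure D3:**
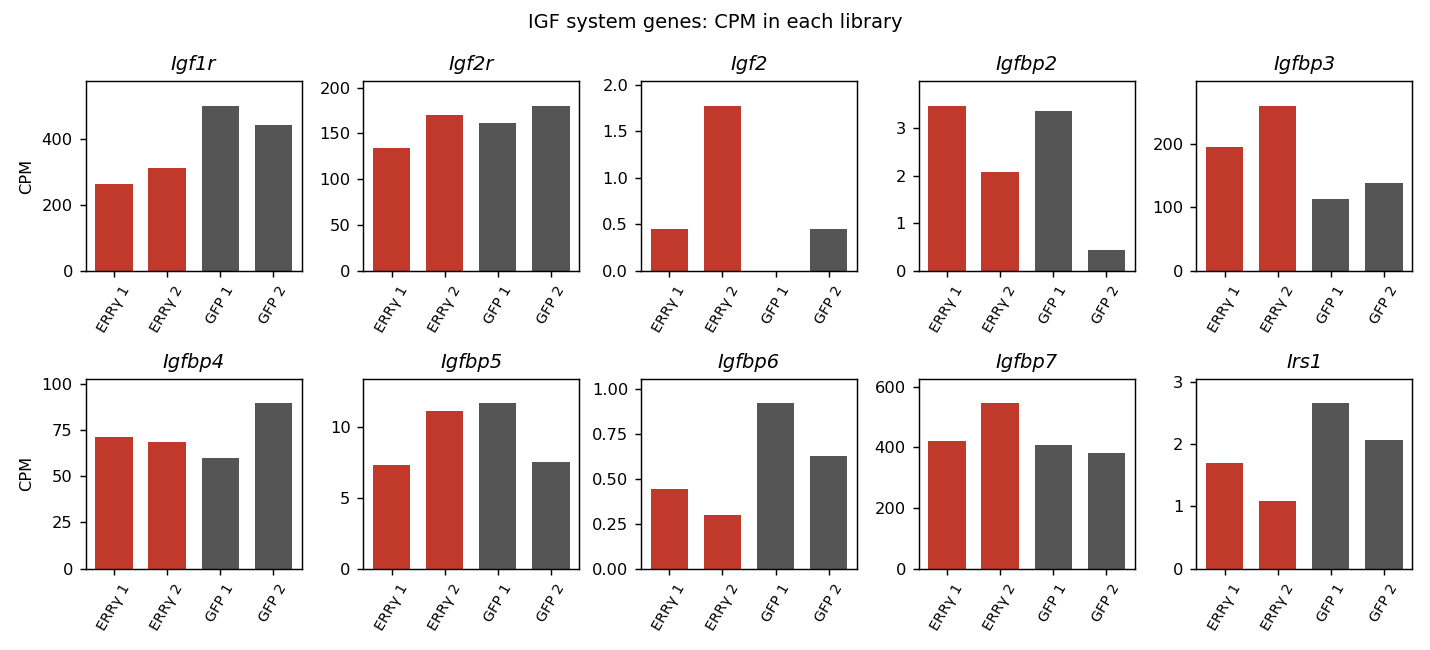
Each panel shows 1 gene, with a bar for its CPM in each library (red, ERRγ libraries 1 and 2; grey, GFP libraries 1 and 2) on an axis that starts at 0. Igf1r is lower and Igfbp3 higher in both ERRγ libraries, and Igf2, Igfbp2, Igfbp6 and Irs1 stay under 4 CPM in every library.

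The list of 46 other IGF and insulin pathway genes also held the imprinted RNAs H19 and Airn, which are not signalling genes. Of the 46, 41 were tested. Under ERRγ 6 rose and 2 fell (Tsc2 and Airn), beside 5.06% and 1.78% of all genes tested. The median log2FC of these 41 genes was 0.01. The rises included 3 of the 4 tested genes that encode proteases of binding proteins or inhibitors of those proteases. Pappa, which encodes pappalysin-1, the protease that cuts IGFBP4, had 38.5 and 29.7 CPM under ERRγ and 12.8 and 9.77 CPM under GFP. It rose 3.03-fold (log2FC 1.60, SE 0.23, adjusted p = 0.00735). Stc2, whose product stanniocalcin-2 inhibits pappalysin-1, had 21.6 and 33.6 CPM under ERRγ and 6.85 and 7.08 CPM under GFP. It rose 3.95-fold (log2FC 1.98, SE 0.27, adjusted p = 0.00641). Protease and inhibitor transcripts were both higher in both ERRγ libraries. Htra1, which encodes a serine protease able to cut IGFBP5, had 106 and 101 CPM under ERRγ and 42.7 and 40.7 CPM under GFP (2.48-fold, adjusted p = 0.00215). Stc1, a relative of Stc2, had 5.52 and 34.5 CPM under ERRγ and 8.48 and 8.16 CPM under GFP. It was high in ERRγ library 2 alone and did not pass (log2FC 1.26, SE 0.68, adjusted p = 0.312). The calls for Pappa (adjusted p = 0.0659 and 0.0832) and Stc2 (0.099 and 0.0761) ended without GFP library 1 or GFP library 2, and that for Htra1 without GFP library 1 (0.0559).

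The largest fold change among these genes that passed was that of Igf2bp1, which encodes an RNA-binding protein of the fetal period that binds Igf2 mRNA. It had 192 and 178 counts under ERRγ and 23 and 11 under GFP, or 17.1 and 17.6 CPM against 2.35 and 0.986 CPM. The rise was 10.5-fold (log2FC 3.39, SE 0.41, adjusted p = 0.00408) and kept its call without any single library (2.87 to 4.12). Its relative Igf2bp3 had 8.20 and 9.67 CPM under ERRγ and 2.96 and 3.77 CPM under GFP (log2FC 1.40, SE 0.34, adjusted p = 0.0512), and Igf2bp2 had a log2FC of 0.23 (adjusted p = 0.526).

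Downstream of the receptors, 3 of 18 tested genes of the phosphoinositide 3-kinase arm passed, beside 6.84% of all genes tested. Eif4ebp1, which encodes the translation repressor 4E-BP1, had 258 and 317 CPM under ERRγ and 147 and 183 CPM under GFP (log2FC 0.80, SE 0.17, adjusted p = 0.0309). Mtor, the kinase that phosphorylates it, had 33.9 and 32.9 CPM under ERRγ and 20.2 and 21.5 CPM under GFP. Its adjusted p of 0.0489 (log2FC 0.68, SE 0.16) lay at the threshold, and the call ended with library totals, without Rn45s, with the replicate number as a block, with DESeq2 and with limma-voom (adjusted p of 0.051 to 0.0775). Tsc2, whose product restrains that kinase, had 38.0 and 40.0 CPM under ERRγ and 62.4 and 57.5 CPM under GFP (log2FC -0.62, SE 0.14, adjusted p = 0.0376). Its transcript end overlaps that of Pkd1 on the opposite strand, which was also lower (30.9 and 28.8 CPM under ERRγ, 53.6 and 50.2 CPM under GFP, adjusted p = 0.0175). The calls for Eif4ebp1 (adjusted p = 0.312 and 0.126), Mtor (0.329 and 0.225) and Tsc2 (0.307 and 0.183) ended without GFP library 1 or GFP library 2, and that for Tsc2 also with library totals (0.065). The other 15 tested genes of the arm did not pass, among them Akt1 and Pik3ca (log2FC -0.53, adjusted p = 0.0884).

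The insulin receptor gene Insr, the close relative of Igf1r, had 24.6 and 27.5 CPM under ERRγ and 41.0 and 31.9 CPM under GFP. Both ERRγ libraries were lower, and the log2FC of -0.48 (SE 0.18, adjusted p = 0.161) did not pass. Irs2, the second main adaptor, split the ERRγ pair, with 44 and 242 counts under ERRγ and 95 and 99 under GFP. ERRγ library 1 lay below both GFP libraries and ERRγ library 2 above them, and the log2FC was 0.57 (SE 0.66, adjusted p = 0.657), with 1.36 without ERRγ library 1 and -1.24 without ERRγ library 2. Igfbp1, a binding protein gene of the liver, had 5 and 61 counts under ERRγ and 5 and 1 under GFP, so that ERRγ library 2 alone was high and the gene was not tested in the fit of all 4 libraries. Without a filter on low counts it passed (log2FC 3.40, adjusted p = 0.000772), and without GFP library 1 or GFP library 2 it did not (4.99 and 2.62, adjusted p = 0.39 and 0.502).

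**Figure D4:**
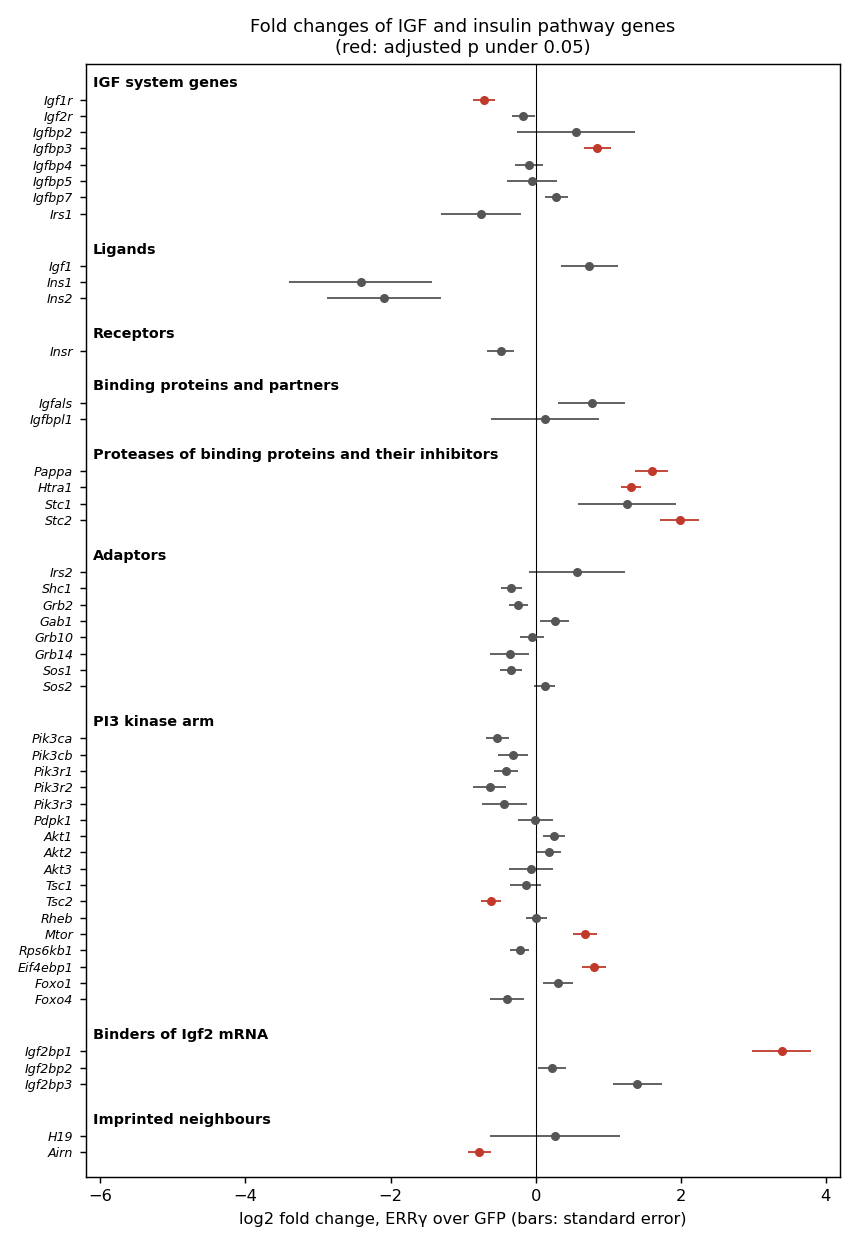
Points are log2FC values of ERRγ over GFP with bars of 1 standard error, for the 8 members tested at the top and other pathway genes tested below, grouped by role. Red points passed an adjusted p of 0.05: Igf1r and Igfbp3 among the members, and Pappa, Htra1, Stc2, Tsc2, Mtor, Eif4ebp1, Igf2bp1 and Airn among the others.

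**Figure D5:**
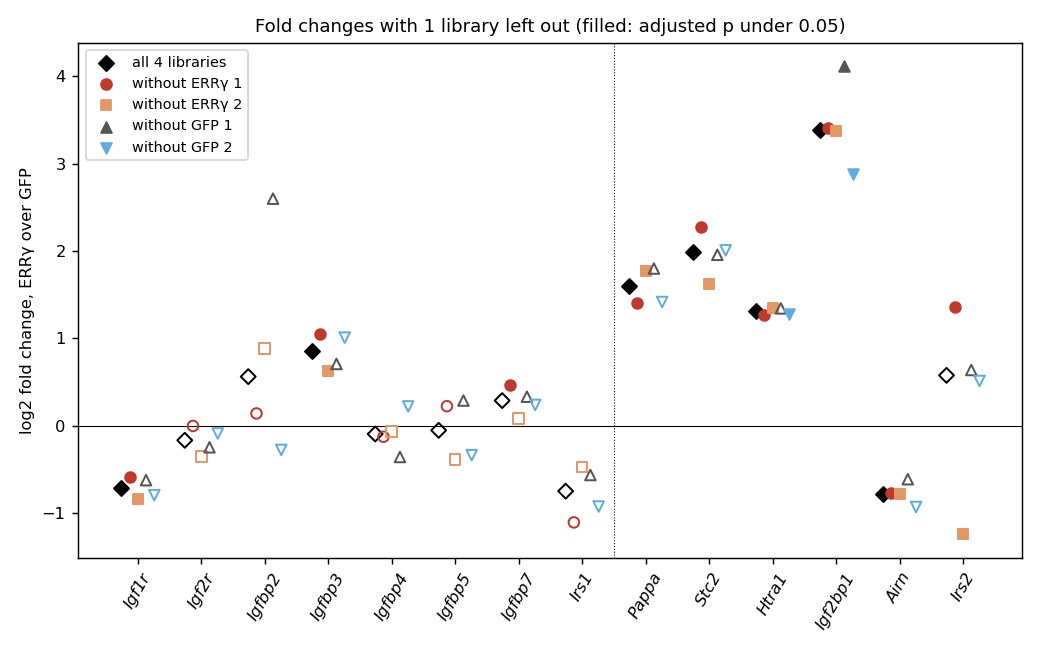
The y axis gives the log2FC of ERRγ over GFP with all 4 libraries (black diamonds) and with each library left out in turn, and filled symbols passed an adjusted p of 0.05. Igf1r stays between -0.84 and -0.59 and Igfbp3 between 0.62 and 1.04, while Igfbp2, Igfbp4, Igfbp5 and Irs2 take both signs.

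The genes most alike to Igf1r in pattern, by the smallest root-mean-square difference of gene-centred log2 CPM over the 4 libraries among 8457 genes, were Ift122 (0.027), Nucb2 (0.028) and Ikbke (0.031). Nucb2 had 243 and 287 CPM under ERRγ and 440 and 396 CPM under GFP. Those most alike to Igfbp3 were Polr2d (0.022), Ndufa9 (0.026) and Hmga1 (0.041), of which Ndufa9, a subunit gene of respiratory complex I, had 44.9 and 57.5 CPM under ERRγ and 25.2 and 31.9 CPM under GFP. These names are a description over 4 libraries.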

How the data were processed

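For every library the authors deposited a table of raw counts by gene symbol. The submitters' processing notes list Bowtie2, edgeR and mm10 with no version. Not given in the sources used here: the counter, its annotation, strand use and the handling of multiply mapped reads. Libraries were made from 500 ng RNA with a transcript-end kit, per the labels' protocols; they mention no molecular identifiers, and intervals and floors therefore reflect counting error only. A floor of 3 counts corresponds to 0.267 to 0.307 CPM.

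The test was edgeR's quasi-likelihood test (edgeR 4.0.16, R 4.3.3; glmQLFit and glmQLFTest, two-sided), with group as the only term, TMM scaling and 2 residual degrees of freedom. The filterByExpr function (minimum count 10) left 13070 of the 17888 rows that had any count, and the Benjamini-Hochberg adjustment ran over these. Standard errors (SE) are the log2 fold change divided by the square root of F. The code was tested on simulated data. The alternatives were DESeq2 (1.42.0) size factors, library totals, Rn45s left out, the DESeq2 test, limma-voom (limma 3.58.1), no filter, a mean of at least 5 CPM, the replicate number as a block, and each library left out. Chi-square over its degrees of freedom between replicates was 24.2 for ERRγ and 15.2 for GFP, so neither pair was a library deposited again.

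The members and the lists of pathway and marker genes were chosen with earlier results of these data known, so no test was run over a list. Within the pathway list, 1 gene is counted in the totals and not otherwise reported here. All members were named, with Igf1, Igfbp1, Insr, Irs2, the 8 pathway genes past the threshold and the 3 genes most alike to each called member. H19, Stc1, Igf2bp2, Igf2bp3, Akt1, Pik3ca and the genes that overlap a named gene were named after their values were seen. So were the marker genes Prss2, Krt7, Cftr, Cd14, Ins1, Ins2, Ptf1a, Msln, Wt1, Lrrn4, Upk3b, Csf1r and Ptprc. The same holds for the marker genes Rbpjl, Cpa1, Pnlip, Amy2a5, Cela1, Bhlha15, Adgre1 and Lyz2. Gene positions are those of GENCODE M21 (GRCm38, which corresponds to mm10) and promoter windows from RefSeq on GRCm38.p6, which held all 10 members; Pappa, Igf2bp1 and Eif4ebp1 are named only.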

Additional observations from a re-analysis of the deposited data

How the results depend on the processing

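With 2 libraries a group, leaving out a library moved the counts of calls most. Across the 4 such fits the genes that rose ranged from 92 to 1597 and those that fell from 7 to 1098, the members that rose from 0 to 2 and those that fell from 0 to 1, and the other pathway genes that rose from 1 to 11 and those that fell from 0 to 6. The low ends are the fits without a GFP library, in which the spread comes from the ERRγ pair alone; a lone library is assumed to vary like the other group. In all 8 fits of 4 libraries 1 member rose, Igfbp3, and 1 fell, Igf1r. Without a filter 1271 genes rose and 738 fell, and 6 pathway genes fell, with 17888 genes tested. With library totals 1 pathway gene fell. With the replicate block 4 pathway genes fell and 776 genes rose and 315 fell in all. Over all genes tested, the same-numbered libraries did not deviate together (correlation of deviations 0.0075), a measure that a pairing in few genes would hardly move. The summed islet markers were lower in library 2 than in library 1 in both groups. They had 12.4 against 41.3 CPM under ERRγ and 24.7 against 173 CPM under GFP. The acinar, fibroblast, smooth muscle and endothelial sums were lower too, the mesothelial sum was higher in both, and the other sums went opposite ways. Whether the numbers pair libraries is not in the labels and was not tested. The sign of the log2 fold change turned for Igfbp2 and Igfbp4 without GFP library 2 (range over the 4 fits -0.28 to 2.60 and -0.36 to 0.22), for Igfbp5 without ERRγ library 1 (0.22) or GFP library 1 (-0.39 to 0.29), and for Irs2 without ERRγ library 2 (-1.24 to 1.36); the cause was not tested. Low counts kept Igf2 and Igfbp6 out of the test, with at most 18 and 9 counts in a library.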
